A study of Mus musculus with 6 samples.

Results

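A set of 9 genes of retinoid storage, retinoic acid synthesis, breakdown and sensing was followed in cultured mouse liver cells. They were chosen by gene name in the deposited table: Lrat, Stra6, Rdh10, Aldh1a1, Aldh1a2, Cyp26a1, Cyp26b1, Rarb and Rarg, 9 of 55401 genes, and each name had 1 row. Messenger RNA was sequenced from cultures labelled hepatic stellate cells, isolated from C57BL/6J mice that were WT or heterozygous for S100a16 (S100a16+/-) and kept for 7 days in medium with fetal bovine serum, with 3 libraries of each genotype. The only labelled difference between the groups is the S100a16 genotype. The labels name neither how the allele was made nor separate animals for the 3 libraries of a genotype. Every p-value therefore refers to the spread between libraries, which may be technical in part. Repeats of the same cell sample would not differ in the X-inactivation transcript Xist as S100a16+/- replicate 3 did (below).

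Hepatic stellate cells are the main vitamin A store of the body. The enzyme LRAT esterifies retinol for storage in lipid droplets, and the droplets are lost when the cells turn into myofibroblasts in culture. Released retinol is oxidised first to retinal and then to retinoic acid, which binds the nuclear receptors RAR and RXR, and enzymes of the CYP26 family clear retinoic acid by hydroxylation. Rarb and Cyp26a1 are textbook retinoic acid targets, whose promoters carry direct repeats of the receptor half-site.

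The 6 libraries held 61979103 to 76291481 counts. S100a16 itself was at 18.0, 17.7 and 30.0 FPKM (fragments scaled to gene length and library size) in the S100a16+/- libraries and at 57.7, 58.8 and 56.8 FPKM in the WT libraries (exact permutation p = 0.1, two-sided, the smallest that 3 against 3 allows). S100a16+/- replicate 3 stood apart. Across genes it correlated at a Pearson r of 0.930 and 0.929 with S100a16+/- replicates 1 and 2, which correlated at 0.987 with each other, and it alone held the X-inactivation transcript Xist at 32.2 FPKM, against at most 0.0323 FPKM in the others. Log2 changes are given with it, and also without it for every member and for each other named pathway gene whose call or direction it changes.

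The stellate label was checked against markers. Of 16 stellate markers 10 were below 1 FPKM in every library, Colec10 had a count of 0 in all 6, and Gfap had at most 12 counts. Desmin (Des) and Ecm1 were present, and the myofibroblast genes Acta2 and Tagln were the most abundant of their list. The summed FPKM of 10 macrophage markers, 6989 to 7298 in WT and 9026 to 15093 in S100a16+/-, exceeded the sum of every other marker list in every library. Of these markers 5 were above WT in every S100a16+/- library, among them Lyz2 and Marco, which carried most of the sum, while Cd163 and Timd4 were below WT in every S100a16+/- library. Without Lyz2 and Marco the other 8 summed to 1394 to 1493 FPKM in WT and 1636 to 2026 in S100a16+/-. That was below the endothelial sum in WT replicate 1 (1441 against 1464 FPKM) and in S100a16+/- replicate 3 (1636 against 1734 FPKM). The 6 cholangiocyte markers summed to 36.1 to 41.9 FPKM in WT and 81.5 to 231 in S100a16+/- through Spp1, which is also in the myofibroblast list. Without Spp1 the other 5 summed to 5.77 to 6.10 FPKM in WT and 4.27 to 5.73 in S100a16+/-. S100a16+/- replicates 1 and 2 differed from WT in other lists: endothelial markers summed to 590 and 561 FPKM against 1317 to 1464 in WT, and hepatocyte markers to 8.87 and 9.10 against 69.6 to 107. Stellate markers summed to 116 and 113 FPKM against 61.9 to 77.6 in WT, and myofibroblast markers to 1399 and 1361 against 1043.5 to 1153. With S100a16+/- replicate 3 left out, edgeR called 8 of 10 endothelial markers lower and 1, Fcgr2b, higher. It called 6 of 9 hepatocyte markers lower and 0 higher. Over all tested genes that fit called 16.4% lower and 15.8% higher. Markers without 1 FPKM in at least 3 libraries were not tested, among them Clec4g, Hnf4a, Cyp2e1 and Tat. The endothelial marker Clec4g was at 3.24 and 3.14 FPKM in S100a16+/- replicates 1 and 2, against 0.576 to 0.995 in WT. In the same fit 3 of 16 stellate markers were called higher and 0 lower, though most of the 16 were not tested. Of 10 myofibroblast markers 4 were called higher and 1 lower. The stellate markers Vipr1, Colec11 and Cygb, under 1 FPKM in every library, were below WT in every S100a16+/- library, and 0 of the 16 were above. With no filter and without replicate 3, Vipr1 and Colec11 were called lower (log2 change -1.45 and -1.18, adjusted p = 0.00182 and 0.0440, edgeR). Every call made without that replicate stands beside these shifts, and their part in it was not tested. In such bulk samples fewer cells of a type and less RNA per cell cannot be told apart.

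**Figure D1:**
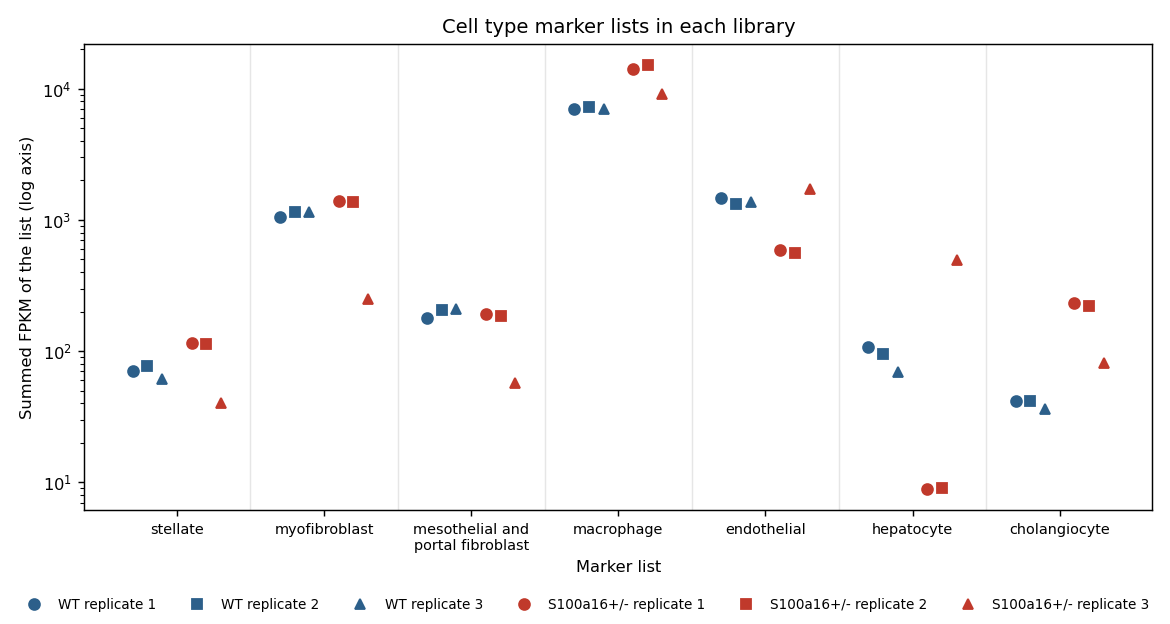
Summed FPKM (log axis) of 7 marker lists in each of the 6 libraries, WT in blue and S100a16+/- in red, with the marker shape giving the replicate. S100a16+/- replicate 3 is the lowest library for stellate, myofibroblast and mesothelial markers and the highest for endothelial and hepatocyte markers, where it reaches 491.8 against 69.6 to 107 in WT.

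The promoters of Rarb, Cyp26a1 and Cyp26b1 are shown because Rarb and Cyp26b1 were the members that passed the test and Cyp26a1 is the paralog of Cyp26b1. Each line gives the 150 bases before the gene start in RefSeq (GRCm38.p6), 5′ to 3′ on the strand of the gene, and capitals mark a direct repeat of the receptor half-site with a spacer of 5 bases. The first base of each half-site was left free in the search, so the capitals leave out that of the first half-site. The RefSeq starts differ from the gene ends in the deposited table, and the Cyp26b1 window held no match.
Rarb, chr14:16575477-16575626, minus strand: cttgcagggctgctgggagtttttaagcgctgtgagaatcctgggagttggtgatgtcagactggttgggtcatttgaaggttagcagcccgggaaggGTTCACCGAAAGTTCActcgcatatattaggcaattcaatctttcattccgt
Cyp26a1, chr19:37697658-37697807, plus strand: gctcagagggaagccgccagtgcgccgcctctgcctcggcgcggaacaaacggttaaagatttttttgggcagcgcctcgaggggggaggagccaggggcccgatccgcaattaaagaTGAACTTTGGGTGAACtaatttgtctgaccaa
Cyp26b1, chr6:84593811-84593960, minus strand: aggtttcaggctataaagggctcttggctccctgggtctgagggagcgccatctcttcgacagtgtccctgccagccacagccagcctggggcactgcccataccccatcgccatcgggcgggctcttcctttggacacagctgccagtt

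The search covered both strands for 4 motifs, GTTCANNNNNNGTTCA, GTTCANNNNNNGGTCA, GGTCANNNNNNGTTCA and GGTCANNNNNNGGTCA, no pair of which can match at the same place on 1 strand. The stretch of N holds the spacer of 5 bases and the free first base of the second half-site. Searched were the 13 RefSeq windows of 8 members, each from 250 bases before to 50 bases after a start. Only the windows of Rarb and Cyp26a1 held a match, both to the first motif. In Rarb it was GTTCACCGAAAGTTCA at positions -52 to -37, counted back from -1 at the base before the start. In Cyp26a1 it was GTTCACCCAAAGTTCA on the opposite strand at positions -32 to -17, so that the line above shows its reverse complement. The first motif was found in 25 of 32851 promoter windows (0.0761%) and any of the 4 in 81 (0.247%). Genes with a match numbered 73, of which 16 were tested, and Rarb was the only 1 of them called in the comparison of genotypes. Beside the 4.46% of all tested genes that were called, 1 of 16 does not set these genes apart. A match describes the letters and was not tested as a binding site.

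Cyp26b1, the retinoic acid hydroxylase with 1 of the largest differences in the data, and Rarb, the beta receptor of retinoic acid, rose in the S100a16+/- libraries, and no member fell. Genes with at least 1 FPKM in at least 3 libraries were tested, which kept 6 of the 9 members and left out Lrat, Stra6 and Cyp26a1. By edgeR's quasi-likelihood test over 12766 genes, with Benjamini-Hochberg adjustment, 2 of the 6 tested members rose and 0 fell. Over all tested genes 4.46% were called, 2.85% higher and 1.61% lower. At an unadjusted edgeR p under 0.05, 3 members were higher and 0 lower, and the share of all genes at that level was not counted. DESeq2 called 3 members higher and 0 lower, beside 1125 higher and 763 lower among all tested genes. By limma on log2(FPKM + 1), 1 member was higher and 0 lower, beside 260 and 247 among all tested genes. In 3 of the 6 the genotypes did not overlap, beside 31.4% of all tested genes. With no filter on low values all 9 members were tested and 1, Rarb, was called, beside 0.858% of 28336 genes (0.572% higher and 0.286% lower).

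**Figure D2:**
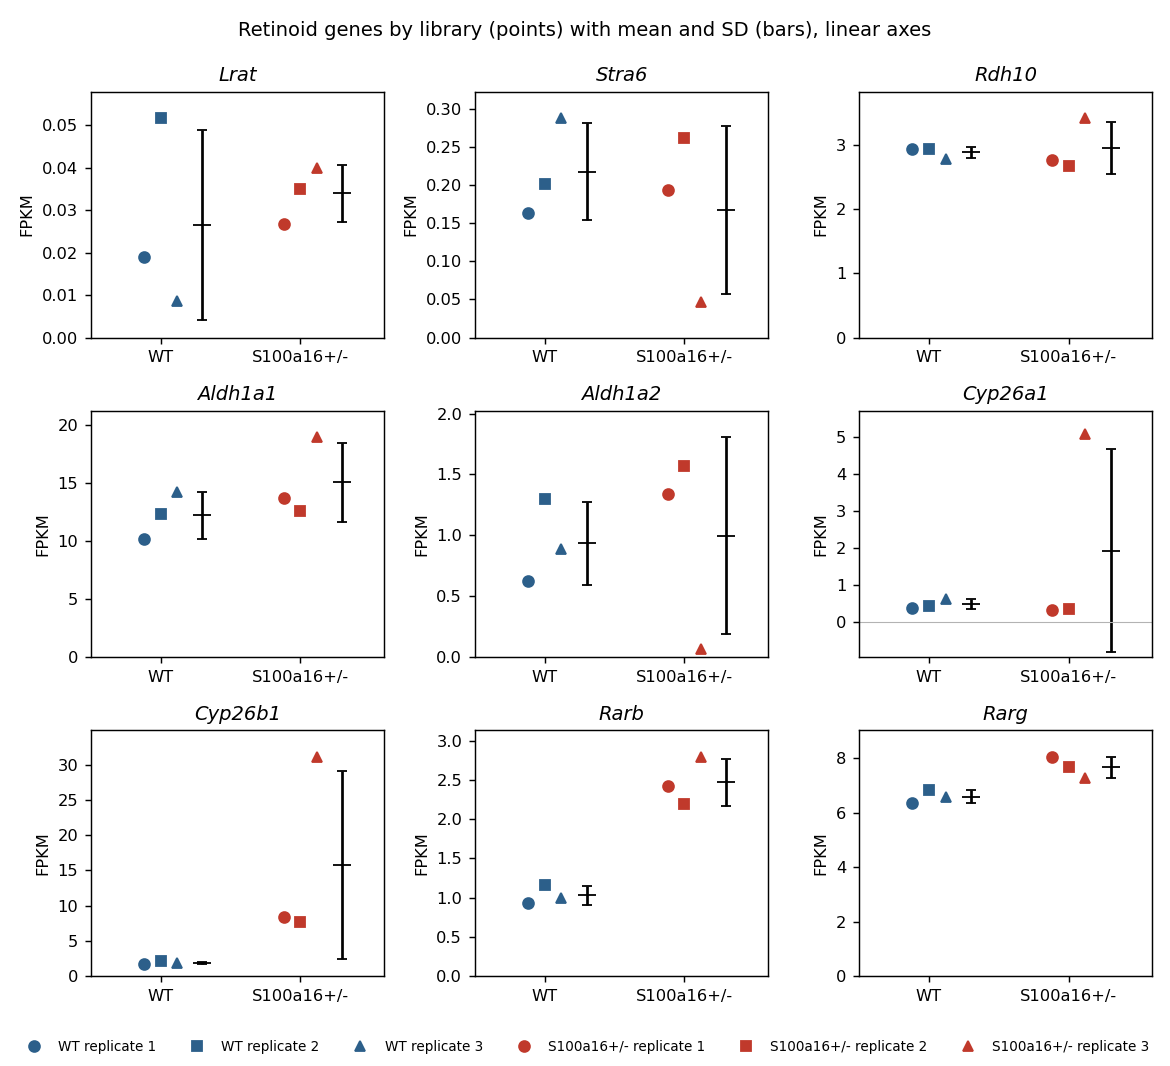
FPKM of each of the 9 members in the 6 libraries, on linear axes that differ between panels. Points are libraries (WT blue, S100a16+/- red, shape for the replicate) and bars are the mean and SD of 3 libraries. The groups do not overlap for Cyp26b1, Rarb and Rarg, and S100a16+/- replicate 3 stands away from the other libraries for Cyp26a1, Cyp26b1, Aldh1a2 and Stra6.

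Among the breakdown enzymes, Cyp26b1 (ENSMUSG00000063415, chromosome 6, 84571414 to 84593908, minus strand) had an FPKM of 8.45, 7.70 and 31.1 in S100a16+/- replicates 1 to 3. It had 1.73, 2.11 and 1.85 FPKM in WT replicates 1 to 3. Every S100a16+/- library was above every WT library, and replicate 3 stood about as far above replicates 1 and 2 as these stood above WT on a log scale. The group means were 15.8 ± 13.3 and 1.90 ± 0.191 FPKM (SD, n = 3 each), a ratio of 8.31, and the ratio was 4.26 with S100a16+/- replicate 3 left out. The log2 change was 3.09 (SE 0.60, adjusted p = 0.0499, edgeR), which ranked 10 from the top by size and 569 by p among 12766 genes. The call was at the edge of the threshold. It held without S100a16+/- replicate 3 (log2 change 2.15, adjusted p = 0.000139, edgeR), ended without any of the other 5 libraries (adjusted p from 0.0943 to 0.213, edgeR), and ended under other filters and scalings or with limma (adjusted p from 0.0503 to 0.0845). The macrophage marker sum was also larger in every S100a16+/- library (3 of 10 markers called higher, none lower and none at 0 in all libraries). It was 14017, 15093 and 9026 FPKM in S100a16+/- replicates 1 to 3. The sums highest in replicate 3 were those of hepatocyte markers, at 491.8 FPKM, and endothelial markers, at 1734 FPKM. In replicates 1 and 2 both of these sums were below every WT library, at 8.87 and 9.10 FPKM for hepatocyte and 590 and 561 FPKM for endothelial markers. The part of these cells in the levels of Cyp26b1 and Rarb was not tested.

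Cyp26a1, which hydroxylates the same substrate (ENSMUSG00000024987, chromosome 19, 37697798 to 37701536, plus strand), was high in a single library. It had 53, 56 and 694 counts in S100a16+/- replicates 1 to 3 and 56, 73 and 102 counts in WT, or 0.332, 0.357 and 5.10 FPKM against 0.382, 0.432 and 0.632 FPKM. In FPKM, S100a16+/- replicates 1 and 2 were below every WT library and replicate 3 was above all. Cyp26a1 reached 1 FPKM in 1 library only, and in the fit to all 28336 genes with a count its log2 change was 2.02 (SE 1.09, adjusted p = 0.516, edgeR). Without S100a16+/- replicate 3 it was -0.41 (adjusted p = 0.491, edgeR). In that replicate the 9 measured hepatocyte markers summed to 491.8 FPKM, against 8.87 and 9.10 in S100a16+/- replicates 1 and 2, and their part in the Cyp26a1 level was not tested. The third family member, Cyp26c1, was at most at 0.120 FPKM in any library.

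Of the summed FPKM of Cyp26a1 and Cyp26b1, Cyp26a1 made up 17.0% to 25.5% in the WT libraries, and 3.78%, 4.43% and 14.1% in S100a16+/- replicates 1 to 3. Cyp26b1 was the larger part in all 6 libraries.

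Among the receptors, Rarb (ENSMUSG00000017491, chromosome 14, 16430839 to 16575827, minus strand) had an FPKM of 2.42, 2.20 and 2.79 in the S100a16+/- libraries. It had 0.934, 1.16 and 0.996 FPKM in the WT libraries. The groups did not overlap, and S100a16+/- replicate 3 was the highest library but close to the other 2 of its genotype. The means were 2.47 ± 0.302 and 1.03 ± 0.118 FPKM (SD, n = 3 each), a ratio of 2.40, and 2.24 without S100a16+/- replicate 3. The log2 change was 1.31 (SE 0.14, adjusted p = 0.0138, edgeR), and 1.22 without S100a16+/- replicate 3 (adjusted p = 0.00158, edgeR). With 1 of the other 5 libraries removed the log2 change stayed between 1.25 and 1.39 and the call ended (adjusted p from 0.0538 to 0.0952, edgeR). Only 1 of the 3 WT libraries reached the FPKM minimum, but Rarb also passed with no filter on low values (log2 change 1.30, adjusted p = 0.0238, edgeR). The 3′ part of the gene shares 4624 bases (chromosome 14, 16430839 to 16435462) with the topoisomerase gene Top2b on the other strand. Top2b had 8193 to 8517 counts in S100a16+/- and 10703 to 12235 in WT, lower where Rarb was higher, and the use of strand in counting is not stated in the labels, so reads of the shared stretch cannot be assigned to either gene.

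Rarg, the gamma receptor (ENSMUSG00000001288, chromosome 15, 102234938 to 102257517, minus strand), was the most abundant of the retinoic acid receptor genes in every library. Its FPKM was 8.03, 7.69 and 7.27 in S100a16+/- and 6.34, 6.81 and 6.58 in WT. The groups did not overlap, by a small margin, as was the case for 12.5% of tested genes in this direction. The change was 0.27 on the log2 scale (SE 0.08) and missed the threshold (adjusted p = 0.112, edgeR), while it passed at 0.32 without S100a16+/- replicate 3 (adjusted p = 0.0122, edgeR), a fit in which 32.2% of genes were called.

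The alpha receptor Rara, from the list of other pathway genes, ran the other way: 4.08, 3.98 and 3.67 FPKM in S100a16+/- against 5.16, 5.29 and 4.65 in WT (log2 change -0.31, SE 0.10, adjusted p = 0.134, edgeR, and -0.26 without S100a16+/- replicate 3, adjusted p = 0.0668). It was named after its values were seen. Summed over the 3 receptor genes, the level was 14.0 ± 0.425 FPKM (SD, n = 3) in S100a16+/- and 12.6 ± 0.546 FPKM (SD, n = 3) in WT. Rarb made up 16.7%, 15.8% and 20.3% of it in S100a16+/- replicates 1 to 3 and 7.51%, 8.76% and 8.14% in WT, while Rara made up 27.8% ± 1.01 (SD, n = 3) in S100a16+/- and 39.8% ± 1.73 (SD, n = 3) in WT. These shares were not tested. Rarg held 52.9% to 55.4% in S100a16+/- and 51.0% to 53.8% in WT.

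**Figure D3:**
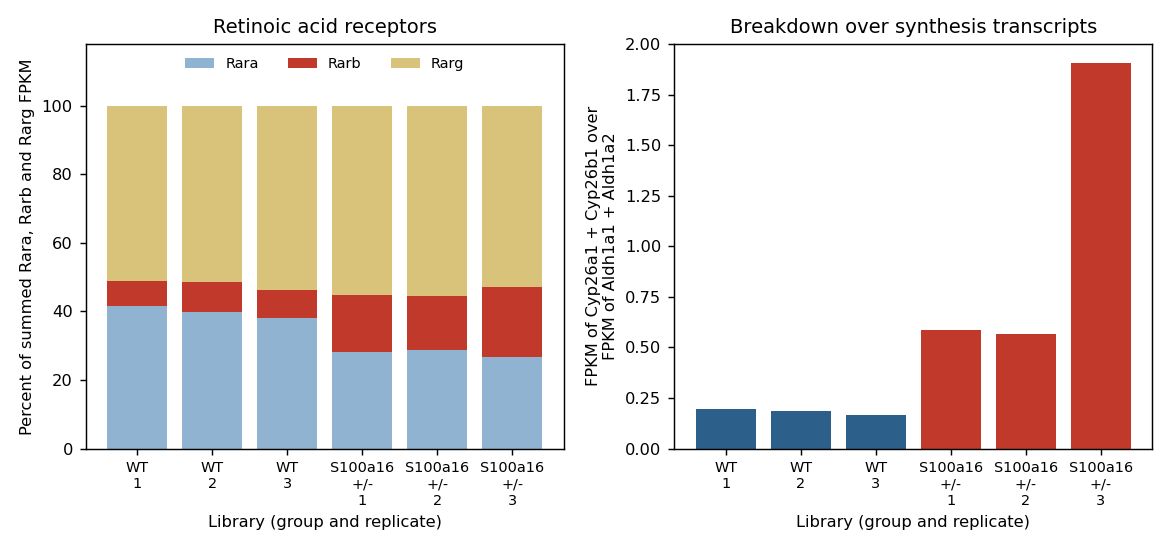
Left, the percent of the summed FPKM of Rara, Rarb and Rarg that each gene held in the 6 libraries. Right, the summed FPKM of Cyp26a1 and Cyp26b1 divided by that of Aldh1a1 and Aldh1a2; it lies between 0.164 and 0.196 in WT, at 0.585 and 0.569 in S100a16+/- replicates 1 and 2 and at 1.91 in replicate 3.

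Retinol storage and uptake genes were barely detected. Lrat (ENSMUSG00000028003, chromosome 3, 82892579 to 82903973, minus strand), the storage enzyme and itself a stellate marker, had 12, 15 and 15 counts in S100a16+/- and 8, 24 and 4 counts in WT, which is at most 0.0517 FPKM. The groups overlapped, and a difference between genotypes was not detectable at these counts (log2 change 0.39, SE 0.76, adjusted p = 0.863, edgeR in the fit with no filter, and 0.28 without S100a16+/- replicate 3). Stra6, the membrane receptor for retinol-binding protein (ENSMUSG00000032327, chromosome 9, 58063788 to 58153996, plus strand), had 89, 120 and 19 counts in S100a16+/- and 71, 100 and 136 in WT. Replicate 3 of S100a16+/- was the lowest of the 6, and the other 2 lay within the WT range (log2 change -0.32, SE 0.61, adjusted p = 0.856, edgeR in the fit with no filter, and 0.12 without that library).

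The levels of the synthesis genes Rdh10 and Aldh1a1 overlapped between genotypes, and neither passed the test. Rdh10, which oxidises retinol to retinal (ENSMUSG00000025921, chromosome 1, 16105774 to 16133734, plus strand), had an FPKM of 2.77, 2.67 and 3.42 in S100a16+/- and 2.94, 2.93 and 2.79 in WT (log2 change 0.08, SE 0.12, adjusted p = 0.728, edgeR, and -0.02 without S100a16+/- replicate 3). Aldh1a1, which oxidises retinal to retinoic acid (ENSMUSG00000053279, chromosome 19, 20492715 to 20643465, plus strand), was the most abundant member in every WT library, at 10.2, 12.3 and 14.2 FPKM. In S100a16+/- it was at 13.7, 12.6 and 18.9 FPKM (log2 change 0.35, SE 0.19, adjusted p = 0.343, edgeR, and 0.17 without S100a16+/- replicate 3).

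Aldh1a2, the second retinal dehydrogenase (ENSMUSG00000013584, chromosome 9, 71215789 to 71296243, plus strand), had 239, 277 and 11 counts in S100a16+/- and 103, 250 and 162 in WT. In FPKM these were 1.34, 1.57 and 0.0685 against 0.620, 1.30 and 0.883. S100a16+/- replicates 1 and 2 were the highest of all 6 libraries and replicate 3 the lowest, at 7.34% of the WT mean. The log2 change was 0.15 (SE 0.94, adjusted p = 0.945, edgeR), and 0.70 without S100a16+/- replicate 3 (adjusted p = 0.165, edgeR). In the same replicate 3 the 10 markers of mesothelial cells and portal fibroblasts summed to 56.8 FPKM, and it was the lowest library for 9 of them. Their sums were 190 and 185 FPKM in replicates 1 and 2 and 179 to 209 in WT. The myofibroblast markers summed to 249 FPKM in replicate 3, which was the lowest library for 8 of 10. They summed to 1399 and 1361 in replicates 1 and 2 and 1043.5 to 1153 in WT. The stellate markers summed to 40.5 FPKM in replicate 3, against 116 and 113 in replicates 1 and 2 and 61.9 to 77.6 in WT. The part of these cells in the levels of Aldh1a2 and Stra6 was not tested.

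The ratio of breakdown to synthesis transcripts, taken as summed FPKM of Cyp26a1 and Cyp26b1 over that of Aldh1a1 and Aldh1a2, was 0.196, 0.187 and 0.164 in the WT libraries. In S100a16+/- replicates 1 to 3 it was 0.585, 0.569 and 1.91. Every S100a16+/- library was higher, as for Cyp26b1 itself and for 12.5% of all tested genes. Cyp26b1 was the larger part of the breakdown sum in every library, so the ratio largely restates that gene. The ratio was not tested. The summed Aldh1a1 and Aldh1a2 level overlapped between groups, at 14.2 to 19.0 FPKM in S100a16+/- and 10.8 to 15.1 in WT, while that of Cyp26a1 and Cyp26b1 did not, at 8.05 to 36.2 FPKM and 2.12 to 2.54 FPKM.

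**Figure D4:**
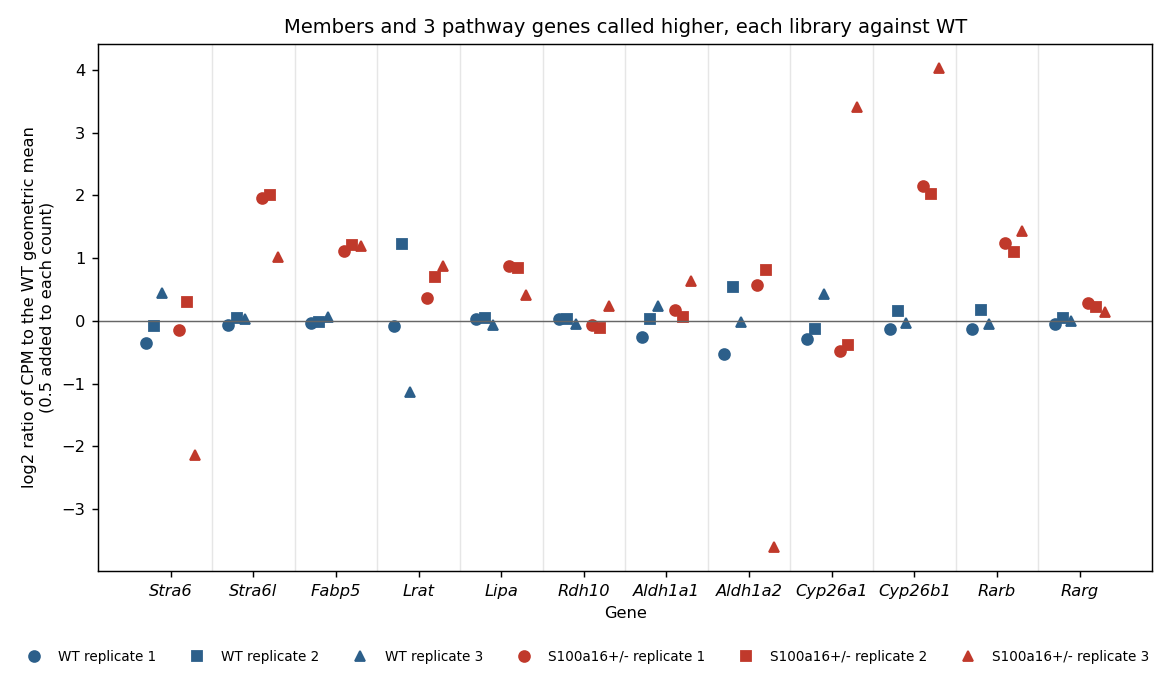
Log2 ratio of CPM (0.5 added to each count) to the geometric mean of WT, for the 9 members and the 3 genes of the wider pathway that were called higher, in each library. All 3 S100a16+/- libraries (red) lie above WT (blue) for Cyp26b1, Rarb, Rarg, Fabp5, Stra6l and Lipa, while replicate 3 (triangle) departs from the other 2 for Cyp26a1, Aldh1a2 and Stra6.

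The wider pathway list held 62 other genes by role, of which 37 were tested: 3 rose and 1 fell, against 2.85% and 1.61% of all genes. Their median log2 change was 0.12, beside 0.00 over all tested genes. Without S100a16+/- replicate 3, 8 were higher and 7 lower, where 15.8% and 16.4% of all genes were called. In 6 of the 37 every S100a16+/- library was above WT and in 7 below it, beside 12.5% and 18.9% of all tested genes.

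Among the carriers 2 of 5 tested genes rose. Fabp5, a fatty acid-binding protein that can deliver retinoic acid to the receptor PPAR delta, had an FPKM of 84.8, 90.2 and 89.4 in S100a16+/- and 37.8, 38.4 and 40.6 in WT. Its groups were far apart and its 3 S100a16+/- libraries were close together. The log2 change was 1.23 (SE 0.06, adjusted p = 0.00210, edgeR), and it was called whichever 1 of the 6 libraries was left out. Near-identical pseudogenes of Fabp5 could take up part of its reads. The gene of that receptor, Ppard, was at 2.46, 2.60 and 2.78 FPKM in S100a16+/- and 3.36, 5.23 and 5.12 in WT, without passing the test (log2 change -0.75, adjusted p = 0.0805, edgeR; it passed at -0.79 when S100a16+/- replicate 3 was removed, adjusted p = 0.0359), and was named after its values were seen.

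Stra6l, which encodes a liver receptor for retinol-binding protein related to Stra6, had an FPKM of 2.33, 2.39 and 1.22 in S100a16+/- and 0.570, 0.613 and 0.604 in WT. It passed the filter only through the S100a16+/- libraries, so its being tested rests on its higher level there. The log2 change was 1.79 (SE 0.28, adjusted p = 0.0326, edgeR), and with no filter it was 1.78 and did not pass (adjusted p = 0.0538, edgeR). The plasma carrier gene Ttr, also a hepatocyte marker, was at 1.07, 1.10 and 47.7 FPKM in S100a16+/- and 4.26 to 5.36 in WT (log2 change 1.79, adjusted p = 0.543, edgeR). Removing S100a16+/- replicate 3 turned the log2 change to -2.10 (adjusted p = 0.000695, edgeR).

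Of the 5 tested genes of ester synthesis and hydrolysis 1 rose. Lipa, the lysosomal acid lipase, had an FPKM of 157, 154 and 115 in S100a16+/- and 86.8, 88.2 and 81.4 in WT. It rose by 0.79 on the log2 scale (SE 0.15, adjusted p = 0.0472, edgeR), which did not pass with no filter (adjusted p = 0.0780, edgeR). The calls of Stra6l and Lipa held without S100a16+/- replicate 3 and ended without any of the other 5 libraries. The macrophage marker sum was also higher in each S100a16+/- library, and its part in the levels of Lipa and Fabp5 was not tested. Lpl, the lipoprotein lipase, was at 197, 210 and 39.4 FPKM against 37.8 to 44.2 in WT, so that S100a16+/- replicate 3 lay within the WT range (log2 change 1.94, SE 0.61, adjusted p = 0.144, edgeR). With that library removed it passed at 2.39 (adjusted p = 5.15e-05, edgeR).

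None of the 9 tested genes of retinoid oxidation and reduction was called by edgeR, DESeq2 or limma. Beside the 4.46% of all tested genes that edgeR called, this does not set them apart. At an unadjusted edgeR p under 0.05, 3 were higher and 1 lower, with no share of all genes counted. The most abundant were Dhrs3, which reduces retinal back to retinol, at 28.9, 31.1 and 21.4 FPKM against 20.9, 23.5 and 20.1 in WT (log2 change 0.39, adjusted p = 0.233, edgeR), and the alcohol dehydrogenase Adh5, at 14.6 to 15.9 against 14.1 to 15.0 (log2 change 0.12, adjusted p = 0.365, edgeR). Both passed without S100a16+/- replicate 3, at 0.54 and 0.16 (adjusted p = 0.00538 and 0.0393, edgeR).

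Among the 10 tested receptors and cofactors, Rxra, the most abundant receptor gene of the list, was at 31.3, 32.0 and 36.4 FPKM against 38.5, 38.6 and 38.9 in WT (log2 change -0.17, adjusted p = 0.237, edgeR). Removing S100a16+/- replicate 3 gave a call at -0.23 (adjusted p = 0.00558, edgeR).

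Of 8 tested genes listed as retinoic acid targets beyond the members, edgeR, DESeq2 and limma called 0, and 0 had an unadjusted edgeR p under 0.05. With 4.46% of all tested genes called by edgeR, 0 of 8 is near that share and does not set these genes apart. The most abundant were the transglutaminase gene Tgm2, at 80.0, 81.7 and 146 FPKM in S100a16+/- and 84.1 to 88.1 in WT (log2 change 0.29, adjusted p = 0.545, edgeR), and Cd38, at 56.7, 57.3 and 84.0 against 54.2 to 57.4 (log2 change 0.29, adjusted p = 0.351, edgeR). In both, S100a16+/- replicate 3 was the highest library and replicates 1 and 2 were near WT, and the log2 changes without it were -0.04 and 0.09.

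**Figure D5:**
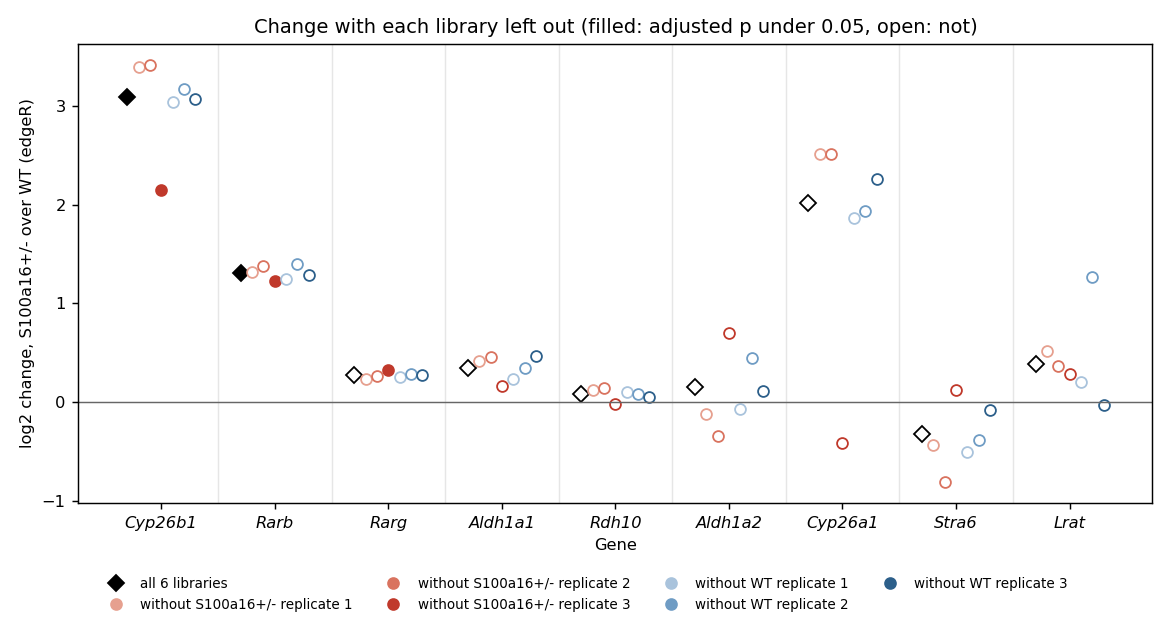
Log2 change (S100a16+/- over WT, edgeR) of each member with all 6 libraries (diamonds) and with each library left out (circles), filled where the adjusted p is under 0.05. Rarb stays between 1.22 and 1.39, Cyp26b1 between 2.15 and 3.41, and Cyp26a1 moves from 2.02 to -0.41 when S100a16+/- replicate 3 is left out.

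Nearness to Cyp26b1 across the 6 libraries was measured by Euclidean distance between log2 CPM values relative to WT, for 12766 tested genes. Genes with Gm numbers, Rik names or accession-like names were then left out. The nearest of the rest were the haptoglobin gene Hp (distance 1.19), the cadherin gene Cdh6 (1.43), the formyl peptide receptor gene Fpr2 (1.81), the chemokine gene Ccl4 (1.86) and the antiviral gene Oas3 (2.00). Hp shared the step up in S100a16+/- replicate 3, with log2 ratios of 1.37, 1.50 and 3.98 in replicates 1 to 3, where Cyp26b1 had 2.22, 2.09 and 4.07. Cdh6 had 2.19, 1.99 and 2.66. The other 3 were at similar heights in all 3 S100a16+/- libraries. Lrat was below the FPKM minimum and was not compared in this way.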

How the data were processed

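The submitters' processing notes name HISAT2 2.0.4, StringTie 1.3.4d, cutadapt 1.9, UMI-tools, edgeR and DESeq2, without roles. Each gene has, per the file headers, a raw count and an FPKM for every library, both made by the authors, with an FPKM placeholder of 0.0001 where the count is 0. Genome build and counting rule: not given in the sources used here. In coordinates, 8 of the 9 members match GENCODE M21 on GRCm38. The exception is Rarb, whose stretch shared with Top2b is read from the deposited coordinates.

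Genes that reached 1 FPKM in 3 or more libraries entered edgeR's quasi-likelihood test (version 4.0.16, R 4.3.3) with TMM scaling and genotype as the only term. Adjusted p under 0.05 was the call, and each SE is the log2 change over the square root of F. Members below the minimum were read from the same fit with no filter. Alternatives used filterByExpr, other scalings, DESeq2 1.42.0, limma 3.58.1 with pseudocounts of 1 and 0.1, the replicate number as a block, and each library left out with the tested genes kept. The members and lists were chosen with earlier results of these data known. Genes were named by rule: all members, called pathway genes, the 2 most abundant of each role and the 5 nearest to Cyp26b1, with exceptions stated; some pathway genes are counted but not reported here by name. Of the marker lists (stellate, myofibroblast, mesothelial and portal fibroblast, macrophage, endothelial, hepatocyte, cholangiocyte) the summed FPKM is plotted. Promoter sequences are from RefSeq (GRCm38.p6).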

Additional observations from a re-analysis of the deposited data

How the results depend on the processing

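Leaving out 1 library gave 22 to 2022 genes higher and 10 to 2093 lower (364 and 206 with all 6), 0 to 3 members higher, 1 to 8 other pathway genes higher and 0 to 7 lower; the highest counts came without S100a16+/- replicate 3. With no filter on low values 162 genes were higher and 81 lower, 1 member and 1 other pathway gene were higher and 0 pathway genes were lower. DESeq2 gave 1125 and 763 genes, 5 pathway genes higher and 3 lower. The member count was 1 under filterByExpr, relative log expression factors, library totals alone and limma at either pseudocount, where the pathway count higher was 1 by limma. In these settings and with no filter Rarb passed and Cyp26b1 did not. Of the called genes 63.9% were higher with TMM, 52.8% with library totals alone, and 51.3% and 52.7% by limma with pseudocounts of 1 and 0.1.

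With the replicate number as a block, 0 genes, 0 members and 0 pathway genes were called in either direction, while the log2 changes of Cyp26b1 and Rarb were 2.77 and 1.31. Libraries with the same number did not deviate together (correlations of -0.14, 0.04 and -0.05 for numbers 1 to 3), so the numbers were not taken to pair them.

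Log2 changes that turned sign did so without a call, except that of Ttr. Aldh1a2 was -0.041 and -0.43 by limma with pseudocounts of 1 and 0.1 and -0.39 with the block, and -0.35 to 0.70 with 1 library left out. The same removals gave -0.035 to 1.27 for Lrat, -0.41 to 2.51 for Cyp26a1, -0.021 to 0.14 for Rdh10, -0.81 to 0.12 for Stra6, -2.10 to 2.34 for Ttr and -0.037 to 0.44 for Tgm2, with S100a16+/- replicate 3 giving the changed sign in all but Lrat (WT replicate 3) and Aldh1a2 (S100a16+/- replicates 1 and 2 and WT replicate 1). Ttr was -0.29 by limma with 0.1 and -0.70 with the block. The cause was not tested. Lrat had at most 24 counts in a library, which limits what its change can show. For Cyp26a1 and Stra6 the SE fell from 1.09 and 0.61 to 0.32 for both without S100a16+/- replicate 3.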
